A study of Mus musculus with 7 samples.

Results

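The 9 genes described here are Six2, Six3, Six4, Six5 and Six6 and Eya1, Eya2, Eya3 and Eya4, taken by name from the 21887 protein-coding genes of the RefSeq annotation. For each gene the peaks over its annotated span and 20 kb on each side were taken from the 4 deposited peak lists, on build GRCm38. The lists come from chromatin immunoprecipitation and sequencing (ChIP-seq) of mouse globose basal cells (GBCs), a progenitor population that renews olfactory neurons. H3K27me3, the repressive mark of Polycomb Repressive Complex 2, and H3K27ac, a mark of active promoters and enhancers, had 2 libraries each. Every group shared the same wild-type adult background and the same injury: methimazole, which destroys much of the olfactory epithelium, had been given 7 to 10 days earlier. Each replicate was a pool of 3 mice, and the cells were enriched on magnetic beads by their c-Kit. No unlesioned group was analysed here, so the comparisons are between marks, genes and replicates.

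Six2 to Six6 belong to the sine oculis family of homeodomain transcription factors, and Eya genes encode their coactivators, which bind those factors and also carry a phosphatase domain. Together with Pax factors and the Dach corepressors they form a network that is used in the eye, ear, kidney, muscle and cranial placodes. Placodes are thickenings of the embryonic head ectoderm, and the olfactory epithelium itself arises from one of them. Members of both families are among the early markers of the shared placode field.

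H3K27me3 and H3K27ac lay together at the start of most of these genes, and 3 genes departed from that pattern. Within 1 kb of a gene start, 7 of the 9 genes had an H3K27me3 peak in both libraries, where 26.7% of all protein-coding genes did. For H3K27ac the count was 8 of 9, against 61.5% of all genes. Six2, Six3, Six4, Six5, Eya2 and Eya4 had both marks, a state found at 16.3% of all genes. None of these 6 kept both marks when a −log10 q of 5 or more was required, since H3K27me3 was then left at the start of Six6 alone (4.35% of all genes). Six6 had H3K27me3 alone, like 10.3% of all genes, and Eya1 and Eya3 had H3K27ac alone, like 45.2%. None of the 9 genes lacked both marks in these windows, as 28.2% of all genes did. The marks were read from a pool of cells, so marks in different cells cannot be told apart from marks on the same chromatin, nor fewer marked cells from a weaker mark.

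The promoters of 4 genes show the sequence around the start of genes in these 3 states, from the RefSeq promoter table of GRCm38.p6, which held 7 of the 9 genes. Each runs from 250 bases before to 50 bases after the start, 5′ to 3′ on the gene's strand, with CpG dinucleotides in capitals. The first is Six6 with H3K27me3 alone (chr12:72939632-72939931, plus strand), the next Eya3 with H3K27ac alone (chr4:132638796-132639095, plus strand). Six2 (chr17:85688205-85688504, minus strand) and Six4 (chr12:73113196-73113495, minus strand) had both marks.
Six6: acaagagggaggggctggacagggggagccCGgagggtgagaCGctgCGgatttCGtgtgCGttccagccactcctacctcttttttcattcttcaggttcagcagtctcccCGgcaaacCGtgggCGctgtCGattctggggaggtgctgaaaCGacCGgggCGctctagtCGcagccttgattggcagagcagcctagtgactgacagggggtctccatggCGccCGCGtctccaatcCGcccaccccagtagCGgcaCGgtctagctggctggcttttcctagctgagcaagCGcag
Eya3: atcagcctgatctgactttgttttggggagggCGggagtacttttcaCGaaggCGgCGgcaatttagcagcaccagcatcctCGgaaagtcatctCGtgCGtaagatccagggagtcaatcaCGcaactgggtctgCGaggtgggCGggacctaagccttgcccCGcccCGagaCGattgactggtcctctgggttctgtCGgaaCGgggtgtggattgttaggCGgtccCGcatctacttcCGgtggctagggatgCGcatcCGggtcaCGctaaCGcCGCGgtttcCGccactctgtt
Six2: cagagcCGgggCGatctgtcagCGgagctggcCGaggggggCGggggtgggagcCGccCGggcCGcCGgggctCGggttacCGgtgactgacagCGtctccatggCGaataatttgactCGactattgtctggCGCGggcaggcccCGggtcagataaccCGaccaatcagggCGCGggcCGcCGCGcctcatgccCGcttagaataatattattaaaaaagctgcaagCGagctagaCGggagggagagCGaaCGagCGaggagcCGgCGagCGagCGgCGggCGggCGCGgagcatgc
Six4: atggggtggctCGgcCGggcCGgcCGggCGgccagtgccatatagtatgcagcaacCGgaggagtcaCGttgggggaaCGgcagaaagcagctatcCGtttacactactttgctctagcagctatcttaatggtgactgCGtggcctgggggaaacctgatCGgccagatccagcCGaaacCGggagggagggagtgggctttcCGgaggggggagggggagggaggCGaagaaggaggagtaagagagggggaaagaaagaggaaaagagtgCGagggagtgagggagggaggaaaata
All 9 promoters listed for these 7 genes held at least 14 CpG in 300 bases, where the median of the 32851 promoters in the table was 7 and the upper quartile 20. Six2 had the most, with 37, followed by the promoters of Eya4 with 36 and 28. Eya3 had 25, Six6 20, Six5 17, Six4 16 and 15, and Six3 14. Six6 and Eya3, with opposite marks, lay in CpG number between Six5 and Eya4, which had both. The core of the site that sine oculis factors bind, TCAGGTT, was searched on both strands, and 4.07% of all promoters in the table held it. It was found in the Six6 and Six4 promoters, shown here in capitals on the strand of the gene (chr12:72939714-72939742 for Six6 and chr12:73113325-73113353 for Six4, where it reads AACCTGA). These are matches of letters only, and no binding of a factor was measured.
Six6: tttttcattctTCAGGTTcagcagtctcc
Six4: ggcctgggggaAACCTGAtcggccagatc

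Peak heights are given as the authors' fold enrichment, a linear ratio of the signal in a broad peak over its local background, averaged over the whole peak. They are read within a library, because read depth is unknown and the value is not on a common scale between libraries. The lists held 64279 to 95749 peaks with a median fold enrichment of 3.21 to 3.61, and the share of peaks whose −log10 q reached 5 ran from 2.34% to 31.1%. With 2 libraries per mark and no read counts no test was made between the marks, so each value is given per library. Of 7 marker genes of globose basal cells, 7 had H3K27ac at the start and 5 also H3K27me3, against 61.5% and 16.3% of all genes. Sox2, Neurog1 and Neurod1 are among these 5, and they are counted again in the lists of placode regulators and downstream genes. H3K27ac was found at 0 of 3 mast cell markers, at 1 of 3 melanocyte, 2 of 3 leukocyte, 2 of 5 horizontal basal cell, 3 of 4 sustentacular, 3 of 4 mature neuron and 3 of 4 stromal and endothelial markers. H3K27me3, at 26.7% of all genes, was found at 4 of 5 horizontal basal cell and 3 of 4 stromal and endothelial markers. It was at 1 of 4 mature neuron, 0 of 4 sustentacular, 1 of 3 mast cell, 1 of 3 melanocyte and 1 of 3 leukocyte markers. These counts do not measure how pure the cells were. The part of other cell types in the values of the 9 genes was not tested.

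**Figure D1:**
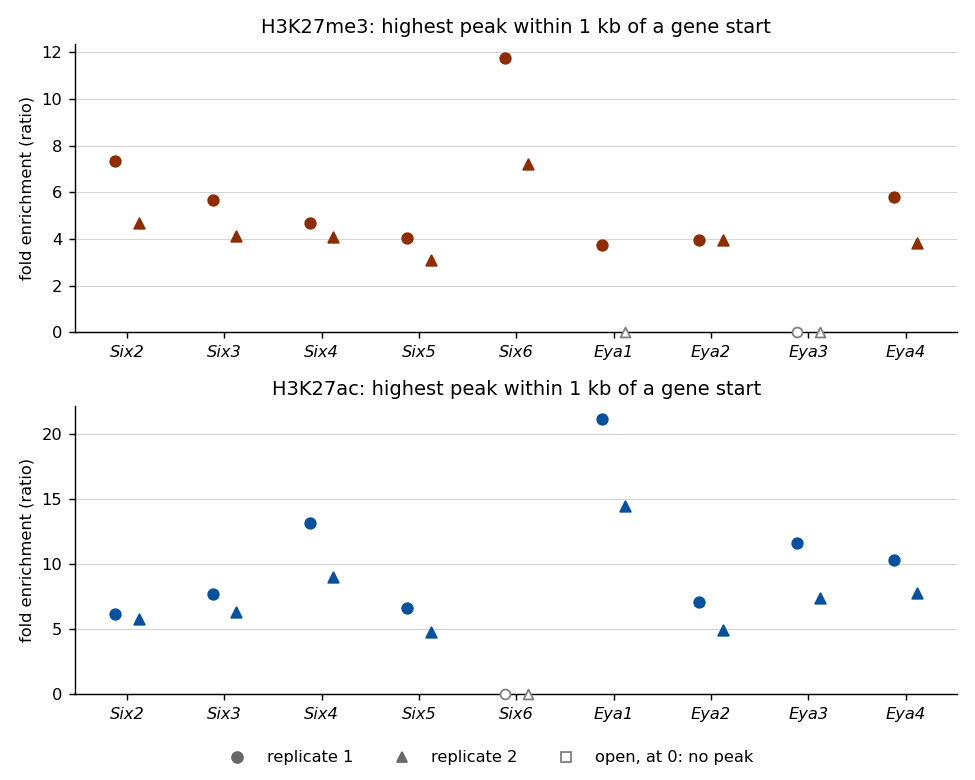
Fold enrichment of the highest H3K27me3 (top) and H3K27ac (bottom) peak within 1 kb of a gene start, with 1 point per library and open points at 0 where a library had no peak. Six6 is highest for H3K27me3 (11.8 and 7.22) with no H3K27ac, and Eya1 is highest for H3K27ac (21.1 and 14.5).

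Six6, a regulator of the eye and ventral forebrain on chromosome 12 (72939882 to 72944899), carried the H3K27me3 peaks of highest fold enrichment in the group. The peak over its start had a fold enrichment of 11.8 in replicate 1 and 7.22 in replicate 2, which placed it in the top 0.850% and 0.804% of all genes. A still higher peak began 5.12 and 5.02 kb downstream of the start, just past the gene's other end, at 16.4 in replicate 1 and 8.76 in replicate 2. The bases under H3K27me3 in both libraries formed 4 segments with a total of 7.56 kb, the longest of 4.69 kb over the start itself. Neither H3K27ac library had a peak anywhere in the 45.0 kb window. Among the 9 genes, Six6 was the only one without H3K27ac, and the only one whose H3K27me3 call at the start remained when a −log10 q of 5 or more was required. The window was covered for 8.64 kb in replicate 1 and 14.5 kb in replicate 2.

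Six3 and Six2 lie next to each other on chromosome 17, with 36.5 kb between them, and both were broadly covered by both marks. Six3 acts in the forebrain and eye, like Six6, and Six2 maintains the progenitors of the kidney. At the start of Six2 the H3K27me3 peak had a fold enrichment of 7.36 and 4.66 and ran for 13.7 and 13.9 kb in replicates 1 and 2. The H3K27ac peak at the same place had 6.12 and 5.75 and ran for 14.6 and 10.97 kb. For both marks these were the highest peaks of the Six2 window, and a stretch of 9.67 kb over the start (chr17:85683431-85693095) was covered in all 4 lists. The nearer end of a noncoding gene, CJ186046Rik, lies 240 bases from the Six2 start, under the same peaks.

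The annotated start of Six3 lies inside its listed span, at position 85620834 of chromosome 17. The peak over it stood at 5.65 and 4.11 in the H3K27me3 libraries and at 7.71 and 6.32 in the H3K27ac libraries. For H3K27me3 a higher peak, at 7.86 and 5.27, lay 1.70 and 1.59 kb upstream of the start, and reached across the lower-coordinate end of the span, where the noncoding gene Six3os1 overlaps it. H3K27ac ran through that position and the start without a gap, as 1 stretch of 14.5 kb shared by both libraries, whereas shared H3K27me3 fell into stretches of 7.06 kb and 6.54 kb. By bases in both libraries, Six3 had the largest covered share of the group for each mark: 36.4% of its 52.6 kb window was under H3K27me3 and 43.9% under H3K27ac. These shares were at or above those of 97.9% and 98.9% of all genes. In H3K27me3 replicate 1 alone, the Six5 window was covered more (54.5%) than that of Six3 (45.2%). Of the bases under H3K27me3 at Six3, 95.9% were also under H3K27ac, and 79.5% of the bases under H3K27ac were also under H3K27me3. At Six2 these shares were 69.4% and 82.3%. The windows of Six2 and Six3 share 3.46 kb, so a peak in that stretch counts for both.

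**Figure D2:**
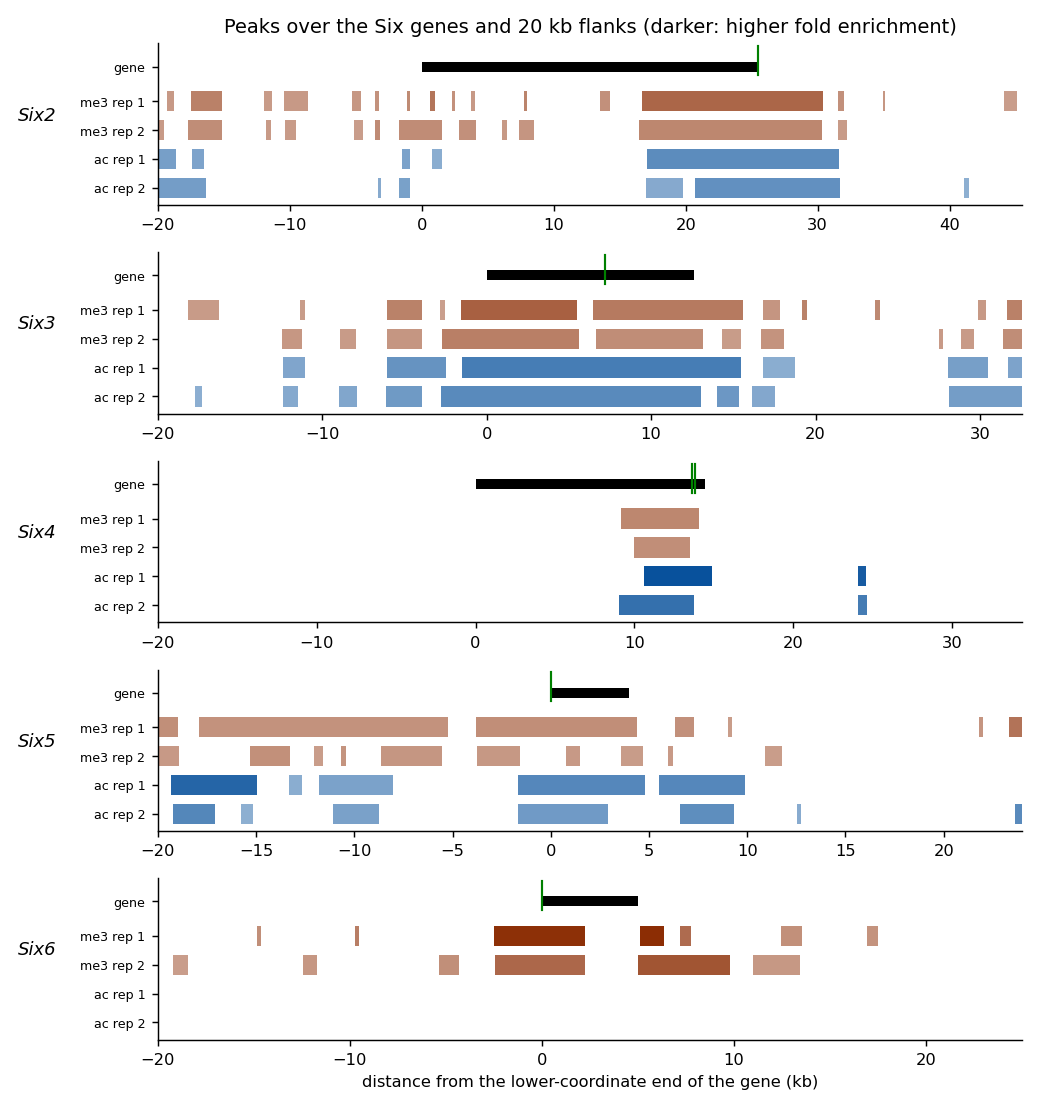
Peaks of the 4 lists (brown, H3K27me3; blue, H3K27ac; darker for higher fold enrichment) along each sine oculis family gene (black bar, with annotated starts in green) and its flanks, by distance from the lower-coordinate gene end in kb. Six2 and Six3 are covered broadly by both marks, Six4 has 1 short region at its start, Six5 lies among peaks of its neighbours, and Six6 has no H3K27ac peak.

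Six4 had a compact region in place of broad coverage. It is a broadly acting member of the family on chromosome 12 (73099609 to 73114031), and 155 kb separate it from the Six6 gene body. Each H3K27me3 library had 1 peak in its 54.4 kb window, at the start, with a fold enrichment of 4.68 and 4.06. The H3K27ac peak at the start had 13.2 and 8.997, in the top 14.9% and 18.2% of all genes. A stretch of 2.89 kb was under all 4 lists, and it ended 0.139 kb inside the gene from the nearest start. A further H3K27ac peak 10.3 kb upstream, at 11.004 and 7.77, lies at the start of Mnat1, which encodes a subunit of the kinase complex that activates cyclin-dependent kinases. The listed span of Mnat1 also covers the Six4 start and the end of that stretch nearest to it.

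Six5, on chromosome 7 (19094544 to 19098549), is known for lying next to Dmpk, the gene of myotonic dystrophy. At its start H3K27ac had a fold enrichment of 6.63 and 4.76 over 6.46 and 4.60 kb, below the median of genes with such a peak in each library (8.77 and 6.89). Six2, Six3 and Eya2 were also below these medians, and Six4, Eya1, Eya3 and Eya4 were above them. H3K27me3 at the Six5 start had 4.04 and 3.10, and in replicate 2 it was a peak of 0.726 kb that began 0.776 kb downstream of the start. That peak had a −log10 q of 1.37, and Six5 no longer counted as carrying H3K27me3 at the start when a −log10 q of 2 or more, or 500 bp under peaks, was required. In both libraries H3K27me3 covered 24.03% of the 44.0 kb window and H3K27ac 28.2%. The H3K27me3 share was 5.14% when a −log10 q of 2 or more was required, and the H3K27ac share was then 26.9%. The marks shared 1.47 kb, which was 13.9% of the H3K27me3 bases and 11.8% of the H3K27ac bases. Most of that window belongs to the neighbours Dmwd, Dmpk and Bhmg1. At the start of Dmwd H3K27ac was higher than at Six5, at 9.96 and 6.71, and at the start of Dmpk it was 4.01 and 4.08. H3K27me3 was in both libraries at these starts too, at 3.997 and 3.15 for Dmwd and at 3.75 and 3.57 for Dmpk. H3K27me3 at the Six5 start was thus not particular to that gene.

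Eya1, the gene of branchio-oto-renal syndrome in people, carried the H3K27ac peak of highest fold enrichment among the 9 genes and little H3K27me3. It lies on chromosome 1 (14168953 to 14311035), and both gene ends were searched, because no start was taken from the promoter table. A peak of 0.662 and 0.729 kb lay 0.793 and 0.762 kb inside the higher-coordinate end (chr1:14309581-14310242 in replicate 1). Its fold enrichment was 21.1 in replicate 1 and 14.5 in replicate 2, in the top 1.91% and 3.25% of all genes. Further H3K27ac was spread along the gene: the libraries had 20 and 21 peaks, and 14 segments of both libraries came to 8.71 kb. That was 4.78% of the window, a share at or above that of 60.6% of all genes. The next highest H3K27ac peak lay 5.48 kb inside the same end, at 6.79 in replicate 1, and in replicate 2 a peak of 2.94 kb at 6.36 covered that position. H3K27me3 had 2 small peaks in replicate 1, at 3.96 and 3.74, the latter a peak of 287 bp inside the strong H3K27ac peak, and 1 in replicate 2, at 3.52. The replicates shared none of these bases, so Eya1 counted as carrying H3K27me3 in its window by a peak in each library, but had 0 bases under both libraries.

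Eya2, on chromosome 2 (165595028 to 165771727), showed the widest H3K27ac of the Eya genes. H3K27ac peaks, 32 and 35 in replicates 1 and 2, covered 39.6% and 33.2% of its 216.7 kb window. The bases in both libraries came to 60.7 kb in 29 segments of up to 8.21 kb, a share of the window at or above that of 95.2% of all genes. The peak at the lower-coordinate end had a fold enrichment of 7.08 and 4.92, while the highest H3K27ac peak, at 8.09 and 5.78, lay in the gene body near the other end (chr2:165744523-165747076 in replicate 1). H3K27me3 at the lower-coordinate end had 3.96 and 3.95 and overlapped H3K27ac for 1.75 kb. Over the whole Eya2 window the H3K27me3 replicates overlapped little: replicate 1 had 29 peaks and replicate 2 had 11, and 17.1% of the bases of replicate 1 were also in replicate 2. The last stretch of the window, on the higher-coordinate side, lies within Zmynd8.

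Eya3 had H3K27ac and no H3K27me3 at its start. On chromosome 4 (132639025 to 132724765), its H3K27ac peak of 1.16 and 1.07 kb over the start had a fold enrichment of 11.6 and 7.40. Each library had a few weaker peaks further out, at most 4.49. Only replicate 1 had an H3K27me3 peak in the 125.7 kb window, at a fold enrichment of 2.89 and a −log10 q of 1.33, and it lay beyond the far end of the gene, within Smpdl3b. Eya3 was thus the only one of the 9 genes without an H3K27me3 peak in both libraries in its window.

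Eya4, a gene linked to hearing loss on chromosome 10 (23102962 to 23350838), is the longest of the 9 and had most of its marked bases at its start. H3K27me3 there stood at 5.82 and 3.83 and H3K27ac at 10.3 and 7.78. In replicate 2 a higher H3K27me3 peak, of 0.230 kb at 4.44, lay 21.9 kb from the start, where replicate 1 had 3.84. The region under all 4 lists was 2.56 kb long (chr10:23348359-23350920) and spanned both annotated starts. It held 86.0% of the bases that H3K27me3 shared between its libraries in the 287.9 kb window and 82.7% of those of H3K27ac. Inside the gene, 171 kb downstream of the start, a peak of H3K27ac of 0.253 and 0.190 kb stood at 6.68 and 3.57.

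**Figure D3:**
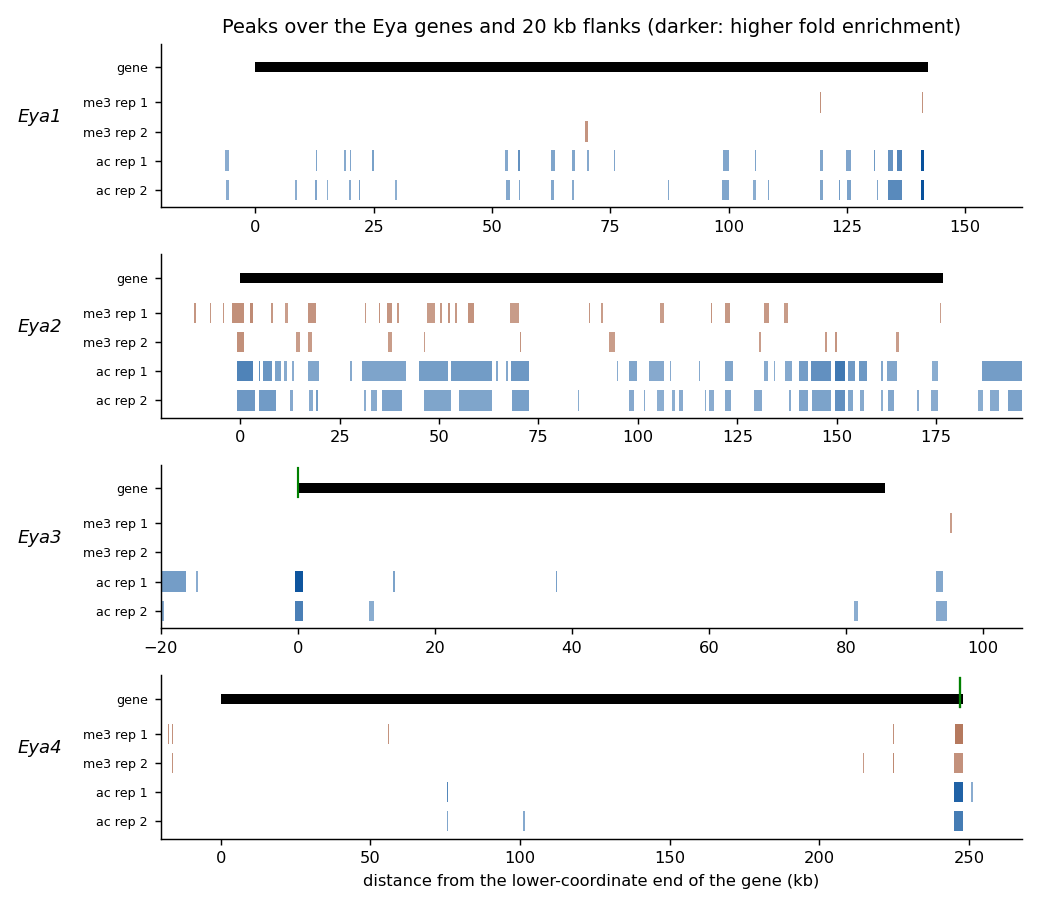
Peaks of the 4 lists (brown, H3K27me3; blue, H3K27ac; darker for higher fold enrichment) along each Eya gene (black bar, with annotated starts in green where the table gave them) and its flanks, by distance from the lower-coordinate gene end in kb. Eya1 has its darkest H3K27ac peak near the right end, Eya2 is covered by H3K27ac over much of its length, and Eya3 and Eya4 have a short peak region at the start.

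Counted over the whole window, the marks were common for genes of any kind. H3K27me3 was in both libraries at 8 of the 9 genes, against 64.3% of all genes, and H3K27ac at 8 of 9, against 75.1%. The share depends on gene length: among genes of up to 50 kb, such as Six2 to Six6, 61.0% had H3K27me3 and 71.1% H3K27ac, and among longer genes, such as the 4 Eya genes, 75.5% and 88.6%. H3K27me3 in both libraries covered from 0% (Eya1 and Eya3) to 36.4% (Six3), with a median of 6.45% against 0.289% for all genes. H3K27ac covered from 0% (Six6) to 43.9% (Six3), with a median of 6.59% against 2.88%. At Six5 H3K27me3 covered 54.5% in replicate 1 and 27.3% in replicate 2, and at Eya2 11.1% and 4.31%. A base under all 4 lists was found in the windows of 6 genes, Six2, Six3, Six4, Six5, Eya2 and Eya4, and in 29.5% of all windows. Within 1 kb of a start the same 6 genes had such a base, against 14.7% of all genes. Counted by a base under both libraries of 1 mark, H3K27me3 was in 7 windows (53.8% of all genes) and H3K27ac in 8 (74.0%). Over the whole windows 7 genes had both marks (54.1%), Six6 had H3K27me3 alone (10.1%), Eya3 had H3K27ac alone (20.9%) and 0 had neither (14.8%).

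The H3K27ac counts held at the strictest peak threshold tried and the H3K27me3 counts did not. A −log10 q of 5 or more was reached by 5.89% and 2.34% of all H3K27me3 peaks and by 31.1% and 18.8% of all H3K27ac peaks. With a −log10 q of 5 or more, H3K27ac stayed at the same 8 genes in the window (60.3% of all genes) and at the start (46.5%). H3K27me3 was then left at Six6 alone, in the window (7.79%) and at the start (4.35%). With a −log10 q of 2 or more H3K27me3 was at 7 genes in the window (38.4%), without Eya1, and at 6 at the start (16.4%), without Six5. With 500 bp under peaks at the start, H3K27me3 was at 6 genes (21.7%), without Six5, and H3K27ac at 7 (57.0%), without Eya1, whose peak lies partly outside the 1 kb. Without H3K27me3 replicate 1 the counts were 8 in the window (67.0%) and 7 at the start (29.3%), and without replicate 2 they were 9 (80.8%) and 8 (43.1%). Without H3K27ac replicate 1 they were 8 (76.4%) and 8 (62.6%), and without replicate 2 they were 8 (77.5%) and 8 (65.5%). Leaving out a library can only keep or add genes, because a call needs a peak in both.

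**Figure D4:**
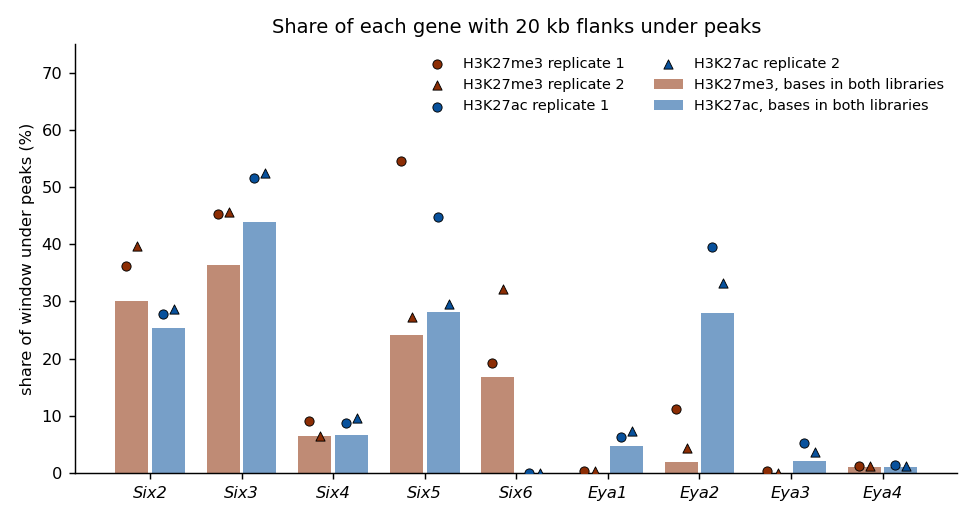
Share of each gene with 20 kb flanks (in percent) under peaks of H3K27me3 (brown) and H3K27ac (blue), with bars for bases covered in both libraries of a mark and points for each library. Six3 has the tallest bars for each mark (36.4% and 43.9%), and Six6 has no H3K27ac.

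The lists of other network and placode genes were drawn up with earlier results of these data known, so their counts are a description. Of 13 partner genes of the network, 10 had H3K27me3 and 10 had H3K27ac at the start in both libraries, and 7 had both, read against 26.7%, 61.5% and 16.3% of all genes. The Pax genes, whose products act upstream of or beside those of the 9 genes, had high H3K27me3. Pax2, an ear and kidney regulator, stood at 13.2 and 7.64 for H3K27me3 with no H3K27ac peak at the start, as did Pax8 at 10.8 and 5.49. In the whole window, Pax2 had H3K27ac in both libraries and Pax8 did not. Pax3, with 10.8 and 7.23, and Pax7, with 9.73 and 6.73, had H3K27ac of at most 3.84. Pax6, the regulator of the eye and of the olfactory placode, had both marks, with H3K27me3 at 8.17 and 6.20 and H3K27ac at 7.96 and 6.36. Dach1, a corepressor, had H3K27ac at 10.8 and 8.01 over weak H3K27me3 at 3.55 and 3.29, while Dach2 had H3K27me3 at 3.95 and 3.59 and H3K27ac in replicate 2 alone. Sobp, which encodes a partner of sine oculis factors, stood at 5.53 and 4.30 in the H3K27me3 libraries, with H3K27ac at 7.72 and 5.39. At the start, the Groucho-type corepressor genes Tle1, Tle3 and Tle4 had H3K27ac of 6.85 to 13.4, and H3K27me3 at 1 of these genes in 1 library (Tle1, 2.97). The whole windows of Tle3 and Tle4 had H3K27me3 in both libraries. Tle2 and Tle5 had both marks, with H3K27me3 of at most 3.76.

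All 12 other placode regulators counted had H3K27me3 at the start, and 8 also had H3K27ac, beside 26.7% and 16.3% of all genes. For Dlx3, Dlx5, Dlx6, Irx1 and Sox3 both gene ends were searched, so a peak at either end counted. Foxi3, which acts in the shared placode field and the ear, had H3K27me3 at 14.6 and 8.50 and no H3K27ac. Dlx3 had 7.27 and 4.25 for H3K27me3 with 5.31 and 3.75 for H3K27ac, and Tfap2a, an ectoderm regulator, had 8.78 and 5.64 with 5.45 and 5.39. Gata3 had 8.88 and 7.20 for H3K27me3. Hmx3, Gata3 and Sox3 also lacked H3K27ac at the start in at least 1 library. Otx2, Emx2 and Sox2, which act in the forebrain and in the olfactory placode, had H3K27ac of 6.61 to 13.5 and H3K27me3 of 3.901 to 7.20. Dlx5 and Dlx6, adjacent genes of the olfactory placode, had 5.02 and 3.54 and 6.90 and 4.06 for H3K27me3, with H3K27ac of 5.996 to 8.95. Of 8 genes that act downstream of this network in other tissues or in placode neurons, 7 had H3K27me3, 6 had H3K27ac and 5 had both, beside 26.7%, 61.5% and 16.3% of all genes. Neurog1 and Neurod1, which drive neurogenesis, were among these 5, with H3K27me3 of 4.24 to 7.40 and H3K27ac of 4.54 to 5.67. Sall1 and Gdnf, of the kidney, had both marks, although H3K27ac at Gdnf was at most 3.07. The ion transporter gene Slc12a2 had H3K27ac at 16.7 and 9.73 over H3K27me3 of 3.06 and 3.37. The ligand genes Fgf8 and Fgf10 had H3K27me3 at 8.51 and 5.99 and at 7.96 and 5.21. There was no H3K27ac peak at the start of Fgf8 and 1, in replicate 2 alone, at that of Fgf10. The whole window of Fgf8 had H3K27ac in both libraries. The muscle regulator Myog had weak H3K27ac (3.00 and 3.57) and H3K27me3 in replicate 1 alone.

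**Figure D5:**
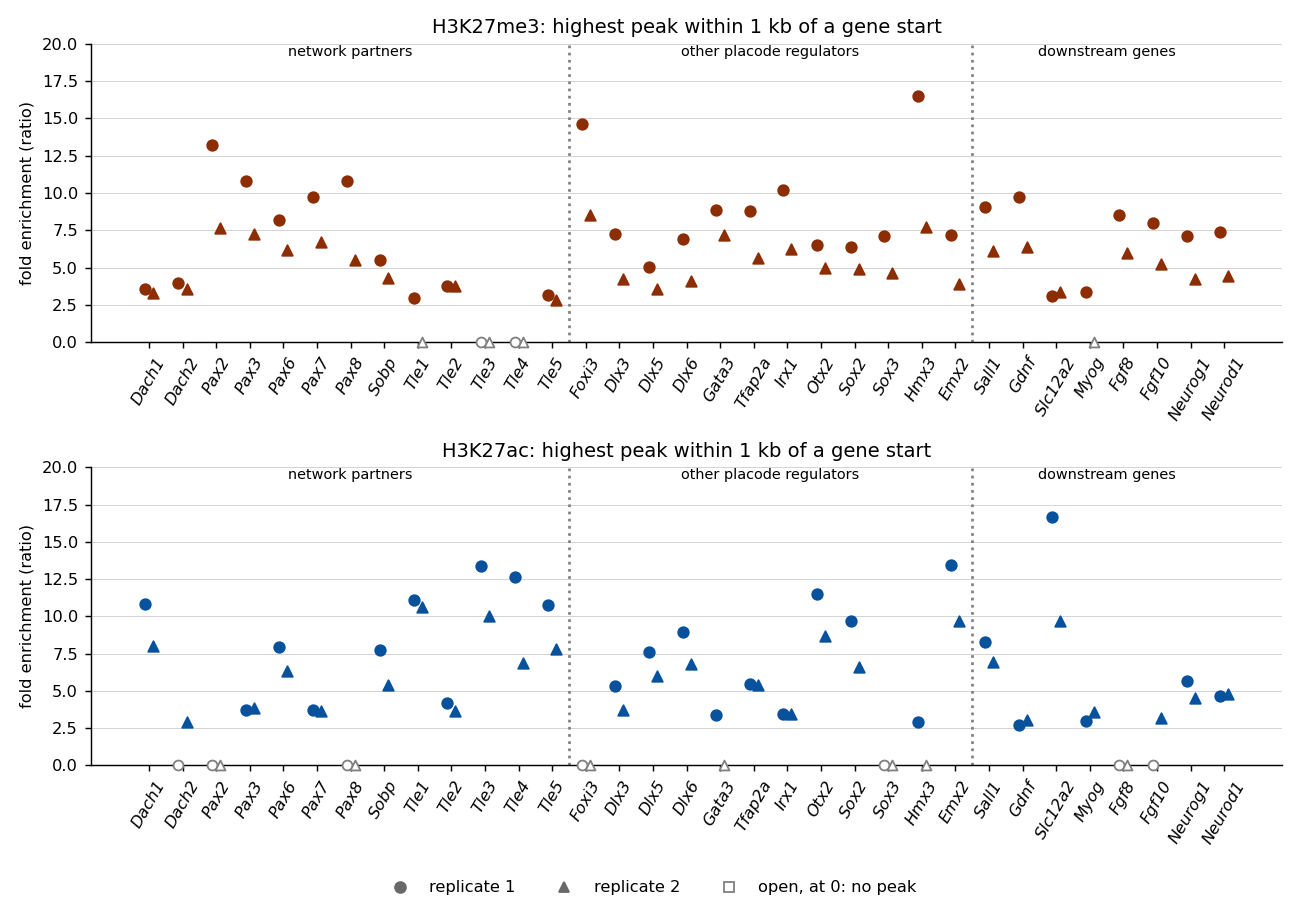
Fold enrichment of the highest H3K27me3 (top) and H3K27ac (bottom) peak within 1 kb of a gene start for 33 genes in 3 lists (network partners, other placode regulators, downstream genes), with points per library and open points at 0 where there was no peak. Pax2, Pax8 and Foxi3 are high for H3K27me3 with no H3K27ac, and Tle3 and Tle4 show the opposite.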

How the data were processed

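ChIP-seq libraries of H3K27me3 (2), H3K27ac (2) and input (3) were grouped by sample title. The 4 peak lists were used, and the inputs were not analysed here. Replicate 1 of H3K27me3 used the same input as replicate 2 of H3K27ac, per the labels. The submitters' processing notes name MACS2, Picard, Bowtie and fastp, with build GRCm38 (mm10). Their versions are not given in the sources used here. Broad peaks had been called library by library. As deposited by the authors, the fold enrichment is a linear ratio of peak signal over background, computed by MACS2 for each peak. The −log10 p and −log10 q columns were deposited by the authors from the same MACS2 calls. The score deposited by the authors holds the −log10 q multiplied by 10, without its decimals. Read totals are not part of these lists, so depth is unknown and no intervals are given.

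Genes were the 21887 protein-coding genes of GRCm38.p6 in RefSeq on chromosomes 1 to 19, X and Y. Starts came from the RefSeq promoter table, for 79.9% of genes. For the rest, Eya1 and Eya2 among them, both gene ends served, and a window there can hold a neighbour's promoter. Among the list genes this holds for Pax3, Tle5, Dlx3, Dlx5, Dlx6, Irx1, Sox3, Fgf8 and Slc12a2, and it holds for some marker genes. A gene carried a mark when both libraries had a peak overlapping its window by at least 1 bp. Covered shares count bases under peaks of both libraries. Python 3.11.15, pandas 2.3.3 and numpy 2.4.6 were used, and the overlap code was tested on simulated peaks. The members and gene lists were chosen with earlier results of these data known. The text names all 9 genes, genes of 3 lists, neighbours in the windows, and for each member the gene with the most similar ranks outside the members, lists and marker sets. Genes with a Gm or Rik symbol were left out of that search. Alternatives were peak thresholds, windows, overlap minimums, either library and leaving out each library. Counts take in every gene of a list, with or without a mark, save a few that are not reported here, which were not left out for their values. Values are given for the first 6 of a list with a mark, and for further genes chosen after their values were seen. Nothing was tested for significance.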

Additional observations from a re-analysis of the deposited data

How the results depend on the processing

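The counts of the 9 genes with each mark, in the whole window and at the start, were recomputed under 34 alternatives, and 32 stayed within 1.5 times. Of these, 4 alternatives, which required a base under peaks of both libraries of a mark, were chosen after seeing the data. Taking either library, leaving out a library or widening the start window can only keep or add genes. With at most 9 genes to count, those alternatives could not pass 1.5 times, so they do not show that the counts are stable. When a −log10 q of 5 or more was required, H3K27me3 was left at 1 of 9 genes in the window and 1 of 9 at the start, in each case Six6, against 7.79% and 4.35% of all genes. H3K27ac remained at the same 8 genes there. Fewer peaks pass this threshold by construction, and depth, on which −log10 q depends, is unknown. Leaving out each library in turn gave 8 to 9 genes for H3K27me3 in the window, 7 to 8 at the start, and 8 for H3K27ac in both. These counts could not have fallen, since a call needs a peak in both libraries. Without replicate 2 of H3K27me3, Eya1 was added at the start and Eya3 in the window. With a −log10 q of 2 or more, the bases of Six5 under all 4 lists fell from 1466 to 254, those of Eya2 from 3618 to 1749, and those of Six4 and Eya4 did not change. No paired analysis was possible because the results come from no test.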

Other observations

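For each of the 9 genes, the protein-coding gene with the most similar set of ranks was found from the highest peak in the window over the 4 libraries, by the smallest Euclidean distance of percentile ranks. The 9 genes, the list and marker genes and genes with a Gm or Rik symbol were left out of the search. The match is a description over 4 libraries and says nothing of shared control. For Six6 it was Dlx1, a homeobox gene of forebrain interneurons, at a distance of 0.109 percentile points and tied with 1 other gene. Dlx1 stood at 15.7 and 9.21 for H3K27me3 with an H3K27ac peak in replicate 2 alone (2.75). For Six3 it was Wnt11, a Wnt ligand, whose H3K27me3 stood at 8.28 and 5.27 and whose H3K27ac stood at 7.98 and 6.19. Six2 was closest to Dkk3, Six5 to Smarcal1, Eya2 to Slc6a21, Eya3 to Acat1 and Eya4 to Slc38a6. The highest peaks of the Six5 window lay in its flanks, so the match with Smarcal1 does not describe the Six5 start. They were H3K27me3 of 6.28 at the Bhmg1 start in replicate 1 and H3K27ac of 9.96 and 6.71 at the Dmwd start. In H3K27me3 replicate 2 the highest peak, at 3.92, lay in the flank as well. Eya1 was closest to the kinase gene Map3k5, with H3K27ac at 20.7 and 13.2. For Six4 the distance to Mnat1 was 0, because the highest peaks of both windows are the same ones.

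At the edge of the Six5 window, the start of Bhmg1 had an H3K27me3 peak in replicate 1 alone (6.28) and an H3K27ac peak in replicate 2 alone (6.37). Per the labels, 1 input served for both of these libraries. The part of the input in this pattern was not tested.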
